A study of Mus musculus with 10 samples.

Results

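The comparison set the day 6 array of the IL-3/GM-CSF culture against the day 3 array of the Sca1-high fraction of the same culture, which makes 2 of the 10 arrays in the series. A gene was counted as different when its levels on the 2 arrays lay at least 2-fold apart and its signal was well above background on the brighter array. This held for 2315 of the 14057 genes that were well above background on at least 1 of the 2 arrays, with 964 genes higher at day 6 and 1351 lower. All cells were EML-C1, an established mouse blood progenitor line that can give rise to several blood lineages. From day 0 the IL-3/GM-CSF culture was kept in IL-3 at 10 ng/ml together with ATRA, a form of retinoic acid, at 10 µM. After day 3 they were moved to medium with less BHK/MKL conditioned medium, the same IL-3 and ATRA, and 10 ng/ml GM-CSF. The day 3 array therefore holds cells that had met IL-3 and ATRA without GM-CSF, sorted for high Sca1, a progenitor surface protein encoded by Ly6a. The day 6 array holds cells that had also received GM-CSF, and its label names no Sca1 fraction. The other arrays hold untreated cells (day 0), the day 3 Sca1-low fraction of the IL-3 culture, cells given 10 ng/ml erythropoietin (EPO), and cells given EPO together with IL-3, ATRA and later GM-CSF, here called the combined treatment.

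Each side had 1 array, so no difference was tested and none has a replicate check. The series' design text speaks of duplicates, which were not analysed here. Day, added GM-CSF, the change of medium and the slide all differ between the 2 arrays and cannot be told apart, and whether the day 6 cells were sorted for Sca1 is not given in their label. The cells are bulk samples, in which fewer cells of a type and less RNA per cell cannot be told apart either. Each level below is on a log2 scale that has the array's own 75th percentile as its zero, and a difference of 1 is 2-fold. A level is not comparable between genes, because each probe has its own brightness. The 75th percentile was 623.1 intensity units on the day 3 array and 631.9 on the day 6 array, and 0 spots were saturated. Of 59305 spots that are no controls, 57.201% were well above background at day 3 and 49.173% at day 6. Probes spotted 10 times had a median SD of 0.0860 (log2, 254 probes) at day 3 and 0.0835 (237 probes) at day 6, which is the error of a spot within an array and says nothing of the spread between cultures.

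Neutrophils mature from myeloid progenitors through stages that fill their granules in order. Promyelocytes make azurophil granules with proteases and myeloperoxidase, myelocytes and metamyelocytes make specific granules with antimicrobial proteins, and band and segmented cells make gelatinase granules and the surface receptors used in chemotaxis. The transcription factors C/EBPα, GFI1 and C/EBPε act in this order, retinoic acid promotes the process, and IL-3 and GM-CSF signal through a shared receptor chain to STAT5.

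At day 6 many genes of neutrophil granules were higher than in the Sca1-high fraction of day 3, and many genes of red cells, mast cells and progenitors were lower. Of all genes measured, 6.86% were at least 2-fold higher and 9.61% at least 2-fold lower, and the median difference over all of them was -0.10. Of the lists of neutrophil genes, 11 of 16 azurophil granule genes, 17 of 21 specific granule genes and 21 of 37 genes of gelatinase granules and the mature neutrophil surface were higher. The erythroid list had 23 of 33 genes lower and 0 higher. Genes used for comparison between samples stayed close together: of 19 housekeeping genes 0 were 2-fold apart, and their differences ran from -0.44 for Ppia to 0.46 for Hprt.

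**Figure D1:**
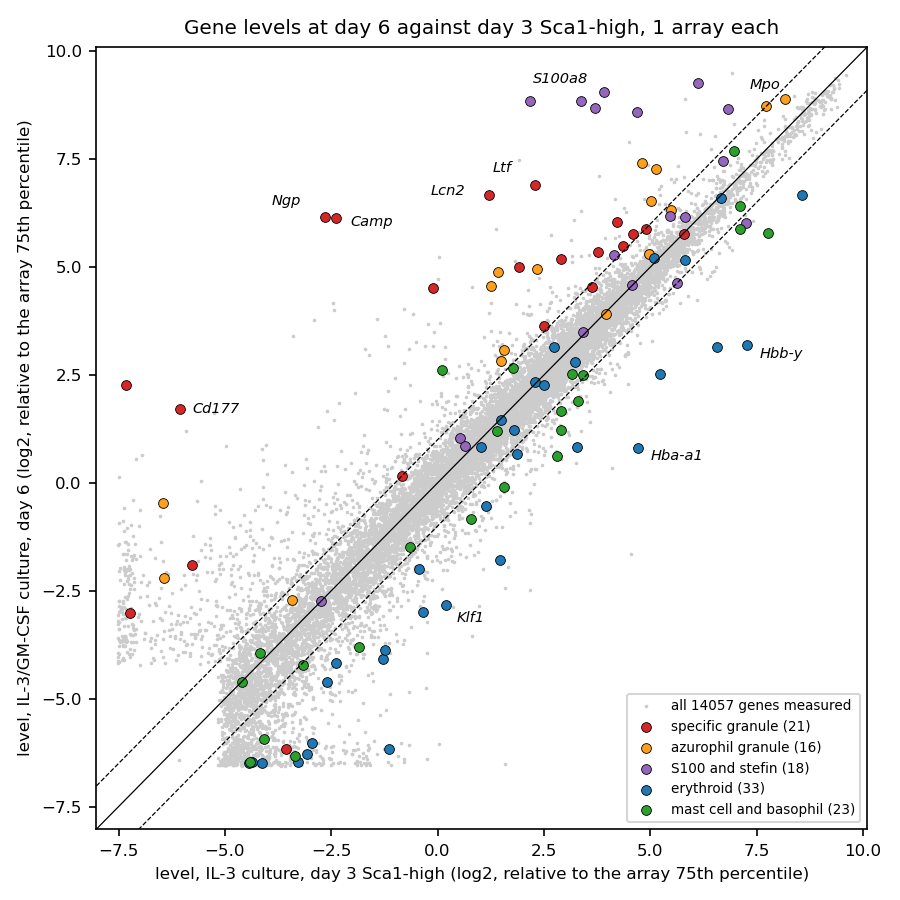
Level of each of 14057 genes on the day 3 Sca1-high array (x axis) and the day 6 array (y axis), both in log2 relative to the 75th percentile of the array. Coloured points are members of 5 gene lists, the solid line marks equal levels and the dashed lines a 2-fold difference. Camp and Ngp stand far above the lines, at day 3 levels of -2.40 and -2.64 and day 6 levels of 6.14 and 6.16, and Hba-a1 and Hbb-y lie below them.

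The 2 directions did not rest on equally firm signals. Of the 964 higher genes, 659 were well above background on both arrays and 305 only at day 6. Of the 1351 lower genes, 574 were well above background on both arrays and 777 were not well above background at day 6. For these dim genes the fold is a bound: the dim side was set to the 1st percentile of the levels well above background on its array, or to its own level where that was higher. That limit was -4.99 at day 3 and -4.04 at day 6, so the day 6 array could follow faint genes less far down. Against the limits, 942 genes remained at least 2-fold higher and 730 at least 2-fold lower, which is 6.70% and 5.19% of genes measured. The higher genes also reached further: 55 were at least 16-fold higher by this bound and 7 at least 16-fold lower. Of the higher genes, 152 (1.08% of genes measured) were well above background on the day 6 array alone of all 10 arrays. Of the lower genes, 202 (1.44%) were so on the day 3 Sca1-high array alone. Where a counted gene had several detected probes, all of them pointed one way in 273 of 315 genes (86.7%), and all of them were at least 2-fold apart in that direction in 197 (62.5%). Just inside the 2-fold limit lay Chil3 (1.0004) and Atp2a1 (1.0029) on the upper side and Tmem237 (-1.0001) and Angpt1 (-1.0009) on the lower side. Ero1a (0.9968), Lpp (0.9965), Dcaf15 (-0.9987) and Slc25a23 (-0.9985) lay just outside it.

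The specific granule list had the highest median of the 33 lists, and several of its members were close to background in the Sca1-high fraction of day 3. Ngp encodes neutrophilic granule protein, a cathelicidin-related granule protein. Its level was -2.64 in the day 3 Sca1-high fraction and 6.16 at day 6, a 444-fold difference on 1 probe. It was not well above background in untreated cells or in the Sca1-low fraction. Camp encodes the cathelicidin antimicrobial peptide, and its level went from -2.40 to 6.14, which is 372-fold (8.54 and 8.32 on its 2 probes). Camp stood at -3.88 in untreated cells and -2.80 in the Sca1-low fraction, so both day 3 fractions were over 2-fold above untreated cells and far below day 6. Ltf (lactoferrin, an iron-binding protein) stood at -2.77 untreated, -0.93 in Sca1-low, 2.28 in Sca1-high and 6.91 at day 6, a further 24.8-fold. Lcn2 (lipocalin-2, which binds bacterial siderophores) was measured, in the same order, at -2.49, -2.20, 1.21 and 6.66, a 43.8-fold difference between the last pair. Cd177 (a neutrophil surface glycoprotein) and Ceacam10 were not well above background in either day 3 fraction, and were at least 104-fold and at least 154-fold higher at day 6. Mmp8, the neutrophil collagenase, was likewise dim at day 3 and at least 8.53-fold higher.

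Other members of the list that were higher included Chil1 (4.63), Lyz2 (lysozyme, 3.10), Ptgs1 (cyclooxygenase-1, 2.29), Pglyrp1 (a peptidoglycan-binding protein, 1.85) and Slpi (a protease inhibitor, 1.60). Only 1 of the 21, B4galt6, counted as lower (-2.62), and as it was not well above background at day 6 its bounded difference was -0.48. The median difference of the list was 2.29, against -0.10 over all genes.

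Azurophil granule genes were higher too, by less in most cases, from levels that were often high at day 3. Mpo (myeloperoxidase) stood at 8.24 in untreated cells, 2.03 in Sca1-low, 7.72 in Sca1-high and 8.73 at day 6, so the difference here was 2.02-fold and the untreated level lay between the 2 arrays. Ctsg (cathepsin G) was much alike, at 8.09, 2.47, 8.18 and 8.90, and its difference of 0.72 stayed under 2-fold. Elane (neutrophil elastase) did not follow them: it was 2.54 untreated, 2.19 in Sca1-low, 1.43 in Sca1-high and 4.88 at day 6, a difference of 3.45. Prtn3 (proteinase 3) was -0.84 untreated and reached 5.01 in Sca1-high and 6.53 at day 6, or 2.86-fold. Untreated EML-C1 cells thus carried Mpo and Ctsg within 2-fold of the day 6 level, which they did not for Elane and Prtn3. Fcnb (ficolin B, a lectin of the innate immune system) was not well above background at day 3 and was at least 22.8-fold higher at day 6. Igsf6 (9.89-fold), Hp (haptoglobin, difference 2.64), Ms4a3 (2.60) and Serpinb1a (an inhibitor of neutrophil proteases, 2.13) were also higher. The median of the 16 genes was 1.52, and 0 of them counted as lower.

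Genes of gelatinase granules and of the mature surface split into those that were higher and those that stayed under 2-fold. Retnlg (a resistin-like protein of neutrophils) was -2.92 at day 3 and 3.78 at day 6, a 104-fold difference, and it was not well above background in untreated or Sca1-low cells. Wfdc21 (a small secreted protein) went from -2.47 to 4.17, or 99.9-fold. Fpr2 (a receptor for formylated peptides) was not well above background at day 3 and was at least 57.4-fold higher. Cxcr2, the receptor that draws neutrophils to CXC chemokines, was 3.87-fold higher (-0.12 to 1.83), C5ar1 (the complement C5a receptor) 10.5-fold (-3.95 to -0.56), Il1r2 (a decoy receptor for IL-1) 4.35 on the log2 scale, and Padi4 (which citrullinates histones) 1.72. By contrast Mmp9, the gelatinase after which these granules are named, stood at 1.48 at day 3 and 1.47 at day 6, though it was not well above background in untreated or Sca1-low cells. Fcgr3 (an Fc receptor) was 5.07 and 5.19. Csf3r, the receptor for G-CSF, was 6.40 and 6.37 here, 6.78 in untreated cells and 7.15 in Sca1-low. In the combined treatment Csf3r differed by -1.43. Its day 6 level here differed by -1.08 from the combined day 3 Sca1-high array, which is on the same slide. Clec4d and Clec4e, lectin receptors of myeloid cells, had differences of -0.80 and -0.83. Mmp25 and Cxcr1, both known from mature neutrophils, were well above background on neither array. The median of the 37 genes was 1.17.

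**Figure D2:**
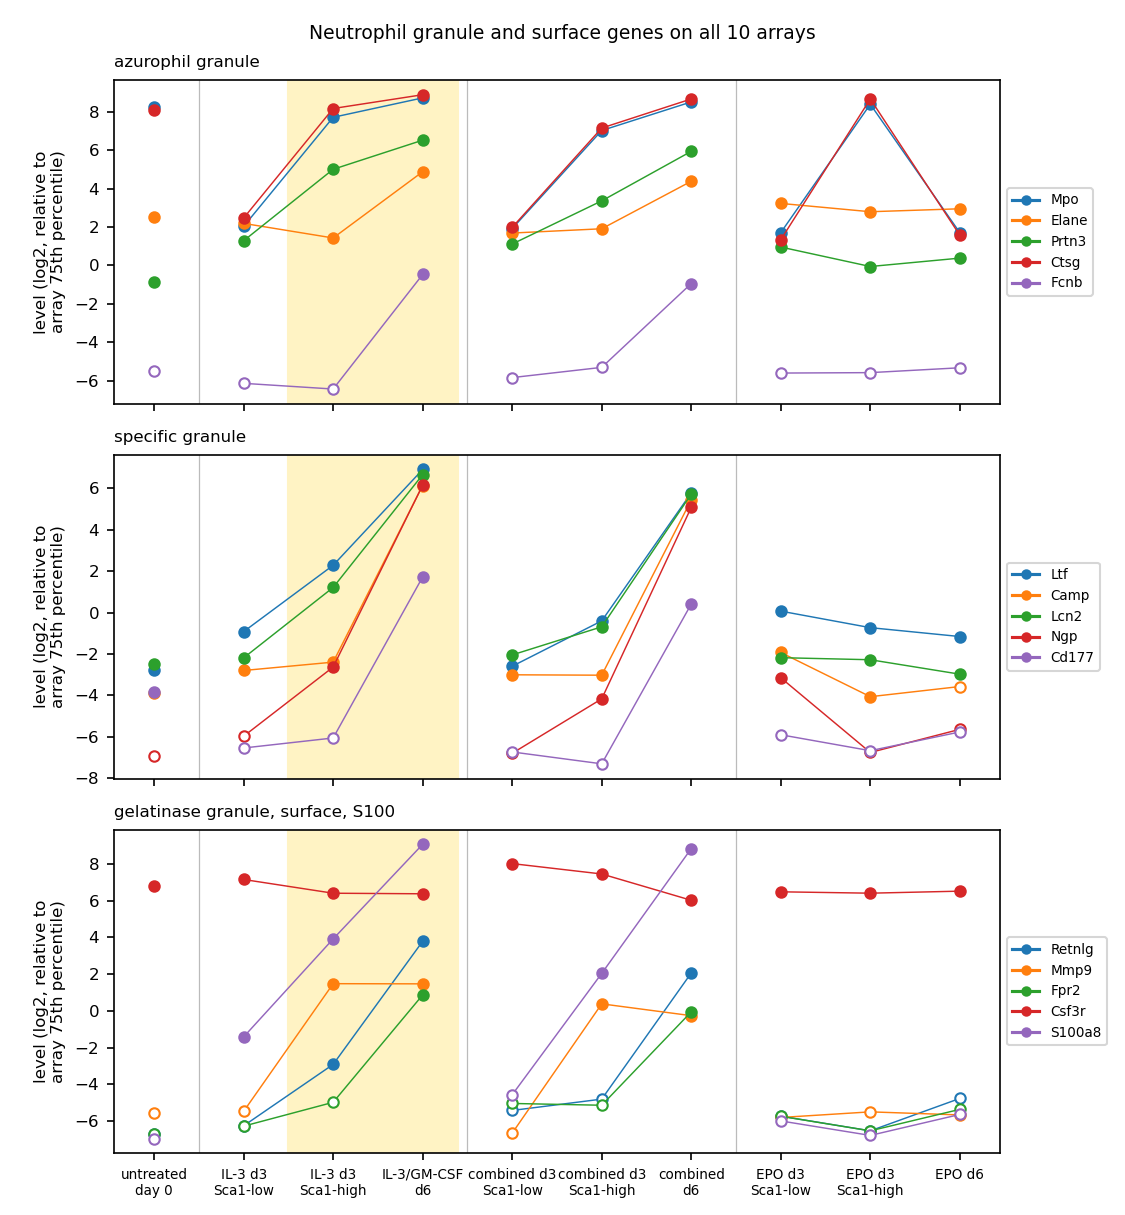
Levels (log2, relative to the 75th percentile of the array) of 15 genes on all 10 arrays, with azurophil granule genes at the top, specific granule genes in the middle and gelatinase granule, surface and S100 genes below. Open circles are not well above background, lines join the arrays of a culture, and the shaded band marks the 2 arrays compared. Camp and Ngp take their largest step between day 3 and day 6, and Mpo and Ctsg are high on both arrays and in untreated cells. Mmp9 (1.48 and 1.47) and Csf3r (6.40 and 6.37) are level between the 2 arrays compared.

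In the S100 and stefin list 8 of 18 genes were higher and 1 lower, with a median of 0.74. S100a8 and S100a9 encode the calprotectin pair, an abundant protein of the neutrophil cytosol. S100a8 was not well above background in untreated cells, -1.42 in Sca1-low, 3.91 in Sca1-high and 9.06 at day 6, a 35.5-fold difference, and S100a9 went from 6.13 to 9.27. The stefins are inhibitors of cysteine proteases, encoded in mice by a cluster of closely similar genes. Stfa2 (102-fold), Stfa3 (44.2-fold), Stfa2l1 (32.0-fold) and Csta2 (3.90 on the log2 scale) were higher, and so was Csta3, a relative outside the list (47.5-fold). Stfa1 stood at 6.84 at day 3 and was 1.83 higher. Their probes may read one another's transcripts, so the number of separate stefin genes that changed is uncertain. The 1 member that was lower was S100a4 (-1.22), a calcium-binding protein of motile cells.

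Outside the lists, the 15 largest increases included Prom1 (CD133, 111-fold), Itgb2l (a leukocyte integrin beta chain of neutrophils, 87.1-fold), Ankrd22 (at least 96.8-fold), Mtus1 (at least 72.7-fold) and Gja5 (a connexin, at least 49.4-fold). Of these 5, only Ankrd22 (-3.66) was well above background in untreated cells.

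Because C/EBP factors are known regulators of granule genes, promoter sequence is shown for 5 granule genes with large differences. They were picked as examples and not by rank, so the share of them that holds a motif has no meaning. The sequences are the 250 bases before the RefSeq start site, in build GRCm38.p6, read 5′ to 3′ on the strand of the gene. They lie for Ngp at chr9:110419558-110419807 (plus strand), Ltf at chr9:111019042-111019291 (plus strand), Lcn2 at chr2:32387740-32387989 (minus strand), Fcnb at chr2:28084879-28085128 (minus strand) and Camp at chr9:109849457-109849706 (minus strand). Capitals mark TTGCNNAA on either strand, the core of a C/EBP site.
Ngp: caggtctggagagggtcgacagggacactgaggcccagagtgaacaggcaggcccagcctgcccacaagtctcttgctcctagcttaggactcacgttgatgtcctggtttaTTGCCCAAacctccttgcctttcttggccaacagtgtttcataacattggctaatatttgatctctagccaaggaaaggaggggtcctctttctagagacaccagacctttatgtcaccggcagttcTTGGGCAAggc
Ltf: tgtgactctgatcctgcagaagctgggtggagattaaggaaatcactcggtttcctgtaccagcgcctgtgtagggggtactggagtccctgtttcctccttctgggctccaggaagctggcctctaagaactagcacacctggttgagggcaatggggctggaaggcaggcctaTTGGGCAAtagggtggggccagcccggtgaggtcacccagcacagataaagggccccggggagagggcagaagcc
Lcn2: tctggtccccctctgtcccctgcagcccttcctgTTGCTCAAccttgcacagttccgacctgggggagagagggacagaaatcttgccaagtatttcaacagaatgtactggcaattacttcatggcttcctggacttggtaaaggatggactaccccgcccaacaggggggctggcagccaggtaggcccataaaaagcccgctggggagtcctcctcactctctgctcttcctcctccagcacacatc
Fcnb: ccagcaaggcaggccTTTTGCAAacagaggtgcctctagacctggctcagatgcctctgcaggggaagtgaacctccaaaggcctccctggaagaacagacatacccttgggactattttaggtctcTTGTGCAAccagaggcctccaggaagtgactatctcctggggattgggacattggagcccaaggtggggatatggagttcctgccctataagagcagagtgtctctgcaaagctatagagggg
Camp: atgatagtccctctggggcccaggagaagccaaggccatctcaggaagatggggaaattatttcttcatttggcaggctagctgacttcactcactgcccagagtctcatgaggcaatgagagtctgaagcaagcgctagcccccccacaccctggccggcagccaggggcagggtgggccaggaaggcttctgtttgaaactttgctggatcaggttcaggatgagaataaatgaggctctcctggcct
Ngp holds this motif at -138 and -11 from the start site, Ltf at -75, Lcn2 at -216 and Fcnb at -235 and -123. Camp, with the second largest difference of all genes by the bounded value, holds none in this window. Nor do Ceacam10, Cd177 and Chil1, which differed by more than Ltf and are not shown. Of the 17 specific granule genes that were higher, 14 had a promoter in the table, and 5 of these 14 held the motif (Ngp, Ltf, Lcn2, Mmp8 and Slpi). Among azurophil granule genes that were higher it was 2 of 8 (Fcnb and Clec12a). The share was 14.5% of 773 higher genes with a promoter, 11.3% of 1080 lower genes, 9.74% of 11275 genes measured and 9.56% of all 32851 promoters in the table. A match describes these letters and is not evidence of binding.
The other motifs searched were GAGGAAGT (an ETS and PU.1-like site), found in 5.05% of higher, 3.33% of lower and 3.03% of measured genes, and TTCNNNGAA (STAT), found in 8.54%, 8.24% and 7.39%. CACGTG, the E-box of MYC and MAX, was held by 6.47% of higher and 6.76% of lower genes against 9.10% of measured genes. The full palindrome TTGCGCAA, which TTGCNNAA contains, was found in only 30 of the 11275 genes.

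Transcription factors of the granulocyte line moved in both directions. Of 44 measured, 6 were higher and 6 lower, with a median of 0.15. Cebpe (C/EBPε, needed for specific granules) stood at 1.04 in untreated cells, -0.44 in Sca1-low, 5.85 in Sca1-high and 8.13 at day 6, so it was already raised at day 3 and a further 4.85-fold higher. Gfi1, a repressor that favours granulocytes over monocytes, went from 3.13 to 5.62 (5.63-fold). Cebpd (1.85), Klf5 (2.83-fold), Mxd1 (a MAX partner of maturing cells, 3.70-fold) and Tfec (at least 18.7-fold) made up the rest. Cebpa, which acts earlier, stood at -3.20 untreated, -1.23 in Sca1-high and -2.51 at day 6, a 2.42-fold lower level. Irf8, which directs monocyte and dendritic cell fates, was 2.89-fold lower (0.40 to -1.13). The others that were lower were Gfi1b (-1.46, a factor of red cells and platelets), Id3 (-1.35), Lef1 (-1.02) and Zbtb16 (-1.01). Spi1 (PU.1) differed by 0.56 and Cebpb by 0.44, both under 2-fold.

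Among receptors and feedback genes of the cytokines, the alpha chain of the GM-CSF receptor differed most. Csf2ra stood between 2.79 and 4.18 in untreated cells and the 2 day 3 fractions, and at 6.57 at day 6, 5.24-fold above Sca1-high. The shared beta chain Csf2rb was 5.66 and 6.37, the IL-3 receptor alpha chain Il3ra 3.51 and 2.88, and the M-CSF receptor Csf1r 3.48 and 3.64. The STAT5 targets Cish (6.07 and 5.88), Socs2 (1.56 and 1.32) and Pim1 (2.90 and 3.38) stayed within 2-fold, while Pim2 was 3.43-fold lower. Of 38 genes in this list 3 were higher and 8 lower, with a median of -0.06. In the retinoic acid list 2 of 16 were higher (Cd38 and Ncoa7) and 3 lower. The lower ones were Cyp26b1 (a retinoic acid-degrading enzyme, -1.70), Rdh12 (-1.43) and Tgm2 (-1.19). Rarb and Cyp26a1 were well above background on neither array.

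Receptors that sense microbes were higher more often than lower, at 11 and 4 of 48. They included Tlr4 (the receptor for lipopolysaccharide, 13.3-fold, from -4.10 to -0.37), its co-receptor Cd14 (7.86-fold, from -1.26 to 1.71), Tlr1 (2.19 on the log2 scale) and Clec4b2 (at least 4.99-fold). Tyrobp, an adaptor shared by many of these receptors, was 7.03 and 6.77. Of the 9 NADPH oxidase genes, which make the oxidative burst, only Cybb counted. This membrane subunit was 9.56-fold higher, from -4.89 to -1.63. Ncf1 (0.76), Ncf4 (0.77) and Cyba (0.42) stayed under 2-fold, at levels of 5.10 or more on both arrays. Bcl2a1d, a survival gene of the BCL2 family, was 9.88-fold higher (3.80 to 7.11), and Ifitm6, an interferon-related membrane protein of myeloid cells, 25.9-fold (0.02 to 4.71). Bcl2a1d also belongs to a family of near-identical copies. The other interferon genes gave 1 more higher gene (Zbp1) and 6 lower of 33, with Oasl1 3.89-fold lower. Among chemokines and cytokines 7 of 37 were higher, such as Ccl6 (3.74-fold, 6.17 to 8.08) and Il1b (1.76), and 9 lower, such as Ccl5 (4.52-fold, 3.58 to 1.40). Against the background limit, 4 of these 9 remained 2-fold lower and all 7 remained higher. Of the 6 lower interferon genes, 4 remained.

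The division machinery differed little between the arrays. Of 46 DNA replication genes 0 were higher and 1 lower (Pola2, 2.30-fold). Of 44 mitosis genes 1 was higher (Bub1, 2.01-fold) and 0 lower. Mki67, a marker of cycling cells, was 6.06 and 6.45, Top2a 3.96 and 4.14, and Myc 3.77 and 3.97. Of 48 genes of ribosome biogenesis 0 passed 2-fold, with a median of -0.30 and Polr1b lowest at -0.91, but this median turned to 0.13 against the day 3 array of the combined treatment, which shares a slide with day 6. Cell cycle inhibitors showed 3 of 24 higher: Cdkn2a (7.23-fold, from -3.57 to -0.71), Mxd1 and Gadd45a (2.77-fold). In the combined treatment Mxd1 differed by 0.95 and Gadd45a by 0.12. Cdkn2a was well above background on neither the day 3 Sca1-high nor the day 6 array there. Cdkn1b (2.30 and 2.18) and Cdkn2d (4.39 and 4.55) were level. In energy metabolism, 5 of 38 glycolysis and glycogen genes were higher, among them the lactate exporter Slc16a3 (3.34-fold) and the glycogen enzymes Pygl (1.31) and Gbe1 (1.24), and 3 lower. Only 2 of 56 respiratory chain genes were 2-fold apart, Atp5o (2.34-fold higher) and Uqcrc1 (2.71-fold lower), and Atp5o differed by only 0.19 in the combined treatment.
The remaining lists likewise held few differences. Lysosomal genes were higher in 3 of 35, among them Arsb (3.56-fold) and Neu1 (3.29-fold), sterol synthesis genes in 1 of 32 (Sc5d), and genes of the integrated stress response in 1 of 33 (Slc7a11, 2.74-fold). p53 targets had 1 higher (Rrm2b) and 1 lower (Gdf15) of 22, apoptosis regulators 2 higher and 1 lower of 27, and integrins and migration genes 1 higher and 4 lower of 37.

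**Figure D3:**
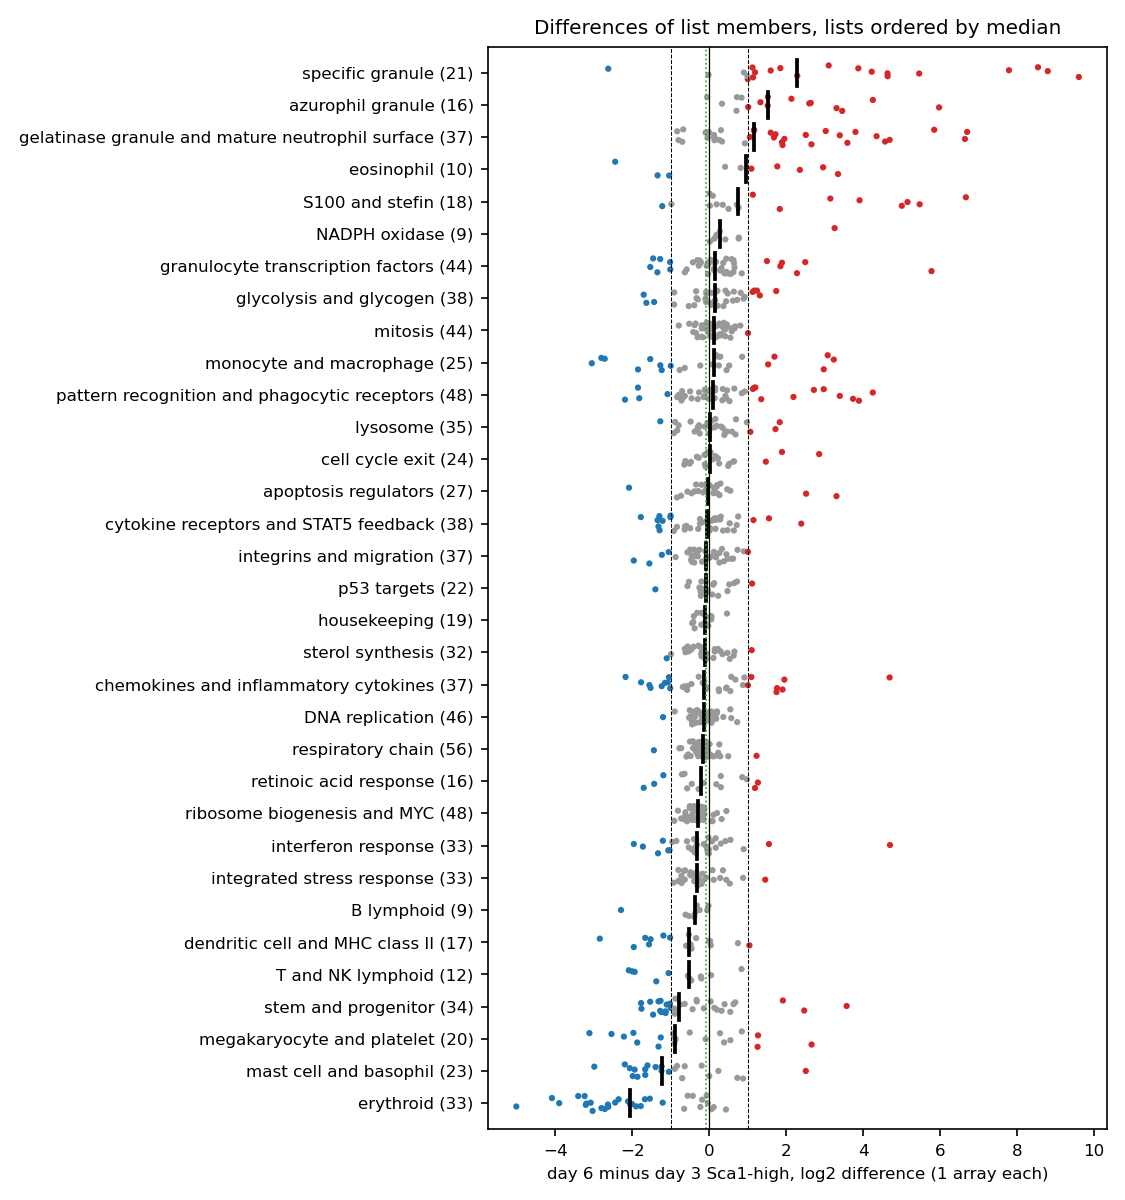
Difference of each measured gene (day 6 minus day 3 Sca1-high, log2) in 33 gene lists, ordered by the list median (black bar), with the number of measured genes in parentheses. Red points are at least 2-fold higher, blue at least 2-fold lower, the dashed lines mark 2-fold and the dotted line the median of all genes (-0.10). The lists of specific granules (2.29), azurophil granules (1.52) and gelatinase granules (1.17) stand at the top, and erythroid (-2.05) and mast cell genes (-1.24) at the bottom.

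The erythroid list had the lowest median of the 33 lists. Alpha globin Hba-a1 stood at 1.19 in untreated cells, 7.88 in the Sca1-low fraction, 4.71 in Sca1-high and 0.82 at day 6, so it was 14.9-fold lower at day 6 than in Sca1-high and back near the untreated level. Embryonic beta-like globin Hbb-y was 4.92 untreated, 7.40 and 7.28 in the day 3 fractions and 3.19 at day 6, or 17.0-fold lower. Hba-a2 (10.6-fold), Hbb-bs (-3.24), Hbb-b2 (-2.71) and Hbb-bt (-1.90) were lower too, and as globin copies share most of their sequence, these values are not independent. Klf1, an activator of beta globin, was 5.05 in Sca1-low, 0.20 in Sca1-high and -2.83 at day 6, and Gata1, the erythroid master factor, was 6.21, 3.27 and 0.82, a 5.44-fold difference. Epor (-1.67) and the blood group gene Kel (-2.63) were lower. Rhd and Slc4a1, both red cell membrane proteins, were not well above background at day 6. Alas2, the first enzyme of haem synthesis in red cells, was faint at day 3 (-4.44) and not well above background at day 6, below the limit of that array, so no fold was formed. The transferrin receptor Tfrc, which all dividing cells use, was 2.29 and 2.35. The median of the 33 genes was -2.05. It was -1.61 over the 24 genes well above background on both arrays. Against the background limit it was -1.21, and 18 of the 23 remained 2-fold lower. With normexp background correction and quantile normalization the median was -0.86, with 14 genes lower. Summed over the 33 genes, the signal was 940 times the 75th percentile at day 3 and 334 times at day 6. Bright probes, such as that of Hbb-y, weigh most in this sum, so it does not describe the 33 genes evenly. Against the Sca1-low fraction, where these genes were higher still, the median was -5.39.

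Of the 16 erythroid genes that were lower and had a promoter in the table, 7 held AGATAA, the GATA motif, on either strand, against 140 of the 1080 lower genes, 10.5% of higher genes, 8.52% of genes measured and 9.99% of all promoters. Epor and Kel are shown as examples that hold the motif and in which both arrays were above background. The motif is in capitals and the window as before, for Epor at chr9:21963577-21963826 (minus strand) and Kel at chr6:41704326-41704575 (minus strand).
Epor: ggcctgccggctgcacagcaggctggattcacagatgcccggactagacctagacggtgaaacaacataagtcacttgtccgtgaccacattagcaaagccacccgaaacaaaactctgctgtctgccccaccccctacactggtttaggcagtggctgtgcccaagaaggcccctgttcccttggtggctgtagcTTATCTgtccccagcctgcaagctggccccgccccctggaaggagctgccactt
Kel: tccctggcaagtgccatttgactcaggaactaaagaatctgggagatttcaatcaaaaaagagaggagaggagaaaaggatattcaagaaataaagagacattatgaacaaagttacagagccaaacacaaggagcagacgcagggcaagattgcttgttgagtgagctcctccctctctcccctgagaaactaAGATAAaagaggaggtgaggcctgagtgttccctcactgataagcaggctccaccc
The motif starts at -54 in Epor and at -56 in Kel. Hbb-y, Hba-a1, Hba-a2, Gata1 and Klf1, all with larger decreases than Epor, did not hold it in this window.

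Mast cell and basophil genes were lower in 13 of 23 and higher in 1, with a median of -1.24. Mcpt4, a mast cell chymase, stood at 6.40 in untreated cells, 0.15 in Sca1-low, 2.82 in Sca1-high and 0.62 at day 6, or 4.58-fold lower. Cpa3 (carboxypeptidase A3, 7.11 to 5.87), Gzmb (granzyme B, 7.78 to 5.79), Mcpt2 (2.90 to 1.23) and Il1rl1 (the IL-33 receptor, 3.30 to 1.91) were lower. Gata2, which these cells need, had a difference of -0.90, and the basophil protease Mcpt8 one of 0.88. The member that was higher, Hdc (histidine decarboxylase, 5.69-fold), is also made by neutrophils and stands in both lists. Of the 13, 4 (Mcpt1, Il13, Hpgds and Fcer1a) did not pass 2-fold against the background limit. The summed signal of the list, in which bright probes such as those of Gzmb and Cpa3 weigh most, was 686 times the 75th percentile at day 3. It was 445 times at day 6.

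Platelet genes gave 7 lower and 3 higher of 20. Ppbp was 8.66-fold lower (2.18 to -0.94), Treml1 5.82-fold and Itga2b 1.97 on the log2 scale, while Pf4 was 3.31 and 3.59 and Thbs1 was 6.31-fold higher. Antigen presentation and dendritic cell genes gave 7 lower and 1 higher of 17, with H2-Eb1 7.17-fold, Itgax 3.89-fold and Cd74 2.96-fold lower. Against the combined day 3 Sca1-high array of the same slide, H2-Eb1 differed by -3.65, Itgax by -2.51 and Cd74 by only -0.12. Within the combined treatment they differed by -1.93, -1.25 and -0.35. H2-Aa and H2-Ab1, which would define class II expression, were well above background on neither array. Of these 7 lower genes, 5 remained 2-fold lower against the background limit. Monocyte and macrophage genes were divided, with 5 higher and 8 lower of 25. By the same limit 5 of the 8 lower ones and all 5 higher ones remained. Ly6c1 (8.44-fold, 5.82 to 8.89) and Spp1 (at least 7.57-fold) were higher, and Marco (8.30-fold) and Apoe (-2.80) lower. Marco, a scavenger receptor of macrophages, stood at 4.44 in the Sca1-low fraction, above both arrays compared. Adgre1 (F4/80) was 4.11 and 4.62, and Mrc1, C1qa and Mertk were well above background on neither array. Eosinophil genes, a close relative of the neutrophil programme, had 5 higher of 10, including the granule proteins Prg2 (7.77-fold) and Epx (5.11-fold), and 3 lower, including the IL-5 receptor Il5ra (2.54-fold). By the background limit 4 eosinophil genes remained higher and 2 lower. Their median was 0.96 here, 0.44 against the combined day 3 Sca1-high array of the same slide and 0.10 within the combined treatment. Lymphoid markers were sparse, with 1 of 9 B lymphoid and 5 of 12 T and NK genes lower and 0 higher. Against the background limit, 2 of those 5 remained.

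Of 34 progenitor genes measured, 13 were lower and 3 higher, with a median of -0.79. Adgrg1 was 3.41-fold lower (5.05 to 3.28), and Mycn (-1.76), Cd48 (-1.53), Hlf (-1.46), Flt3 (-1.32), Meis1 (-1.13) and Tal1 (-1.02) were lower. Kit, the stem cell factor receptor, had most of its change before day 3: it was 5.85 untreated, 3.17 in Sca1-high and 2.53 at day 6. Cd34 stayed high, at 6.92 untreated, 6.64 in Sca1-high and 6.31 at day 6, while in Sca1-low it was 0.44. Ly6a, the gene of the sorting marker itself, was 3.02 untreated, -3.43 in Sca1-low, 2.64 in Sca1-high and 4.55 at day 6. The day 6 cells thus had 3.76 times the Ly6a signal of the fraction sorted for high Sca1, and Cd27 (5.53-fold) and Tek (at least 2.06-fold) were the others that were higher. In the combined treatment Ly6a differed by 2.10 and Cd27 by -0.05. Tek was well above background on neither the day 3 Sca1-high nor the day 6 array there.

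**Figure D4:**
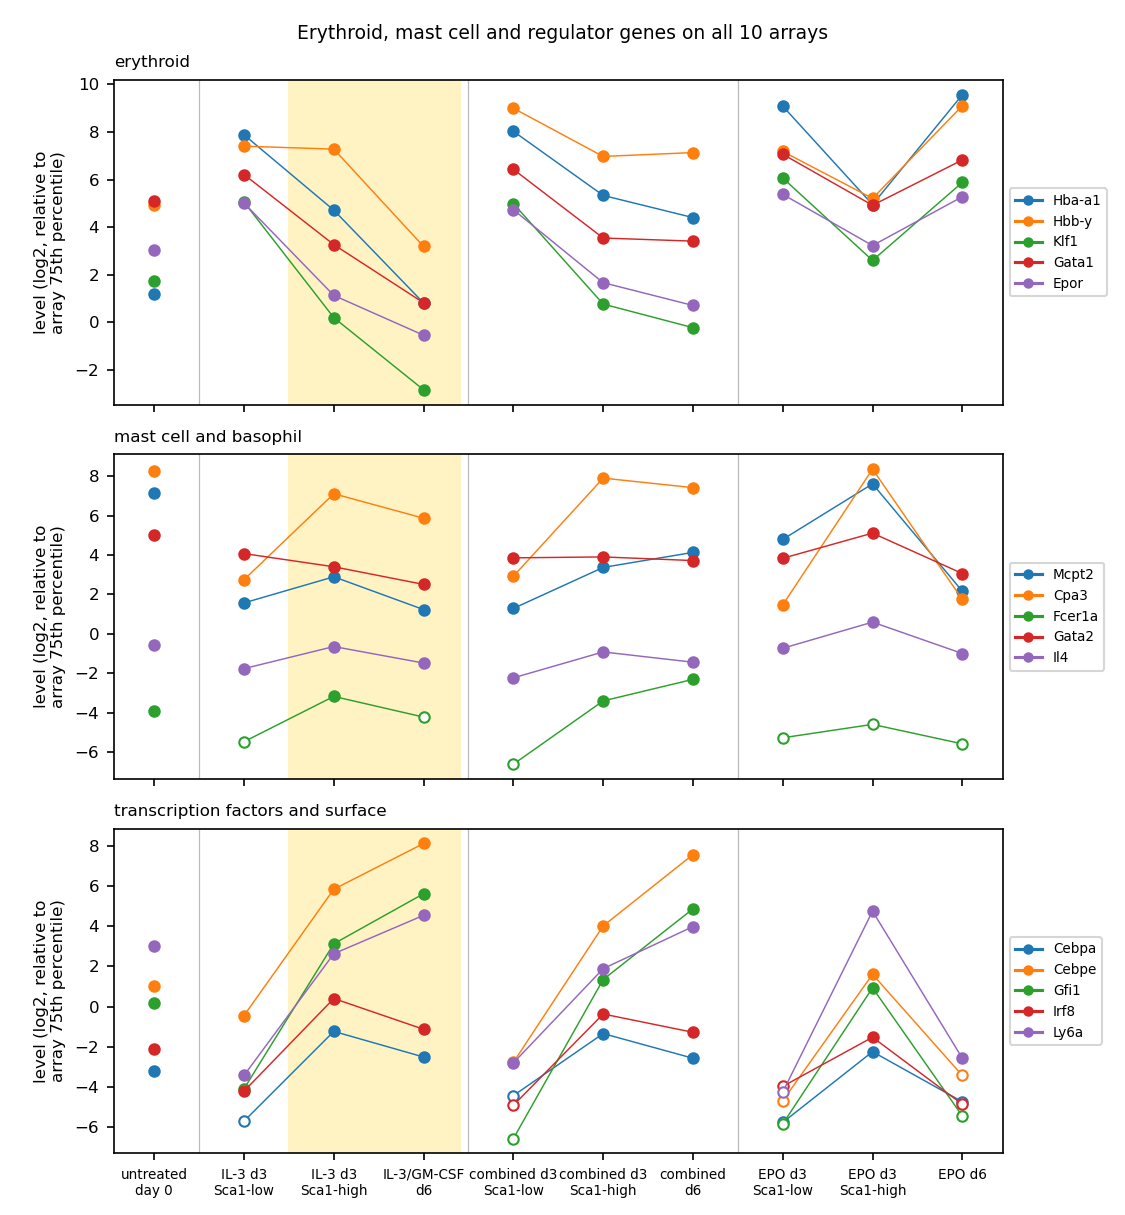
Levels (log2, relative to the 75th percentile of the array) of 5 erythroid genes, 5 mast cell and basophil genes and 5 regulator or surface genes on all 10 arrays, drawn with open circles where not well above background and with the 2 arrays compared shaded. The erythroid genes step down from Sca1-low to Sca1-high to day 6 in the IL-3/GM-CSF culture except Hbb-y, which is alike in both fractions (7.40 and 7.28). In the combined treatment the steps from Sca1-high to day 6 are smaller (Hba-a1 -0.93, Gata1 -0.13).

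The largest decreases outside these lists included single probes that stand apart. Ift27, a transport protein of cilia, was between 3.91 and 5.01 on all 9 other arrays and -1.65 at day 6, a 73.8-fold difference on 1 probe. Nrip3 (20.6-fold lower) and Baiap2l2 (13.5-fold lower) likewise had their lowest value of all 10 arrays at day 6. Fbp2, a gluconeogenic enzyme, was 25.1-fold lower (2.17 to -2.48). Tspan33 (16.2-fold), Atp1b2 (14.1-fold), Acp5 (12.1-fold) and Cldn13 (at least 13.6-fold) had their 4 highest levels on the 3 Sca1-low arrays and the EPO day 6 array. Olfr818 and Olfr1, olfactory receptors, were well above background on the day 3 Sca1-high array and on none of the other 9.

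The combined treatment, which received EPO throughout as well, gave the same contrast on 2 other arrays, with its day 6 array on a slide that holds neither array compared here. There 7.09% of 14164 genes were higher and 7.26% lower. Of the 964 genes higher here, 443 (46.0%) were higher there too, which is 44.1% of the 1004 higher there. Of the 1351 lower here, 236 (17.5%) were lower there too, or 23.0% of 1028. Opposite calls were made for 39 and 33 genes. The granule lists had medians of 2.25 (specific), 2.05 (azurophil) and 0.95 (gelatinase and surface) in the combined treatment, against 2.29, 1.52 and 1.17. Camp differed by 8.47 there and by 8.54 here, Ngp by 9.26 and 8.79, and Ltf by 6.19 and 4.63. The erythroid list had a median of -0.32 there and -2.05 here, and the mast cell list 0.05 and -1.24. The progenitor list had a median of -0.17 there, with 1 gene higher and 0 lower, and -0.79 here. Hba-a1 differed by -0.93 and Gata1 by -0.13 in the combined treatment, against -3.90 and -2.44. The difference between the treatments was not tested, as each has 1 array a side.

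The day 6 array shares its slide with the combined day 3 Sca1-high array, and that pair gave a comparison within a slide, though EPO then differs too. In it 10.4% of 13807 genes were higher and 10.9% lower. The medians were 3.33 for specific granule, 2.54 for azurophil, 2.08 for gelatinase and surface, -2.21 for erythroid and -1.79 for mast cell genes. All 5 were thus at least as far from 0 as across slides, while the median over all genes measured was 0.14 on this basis.

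**Figure D5:**
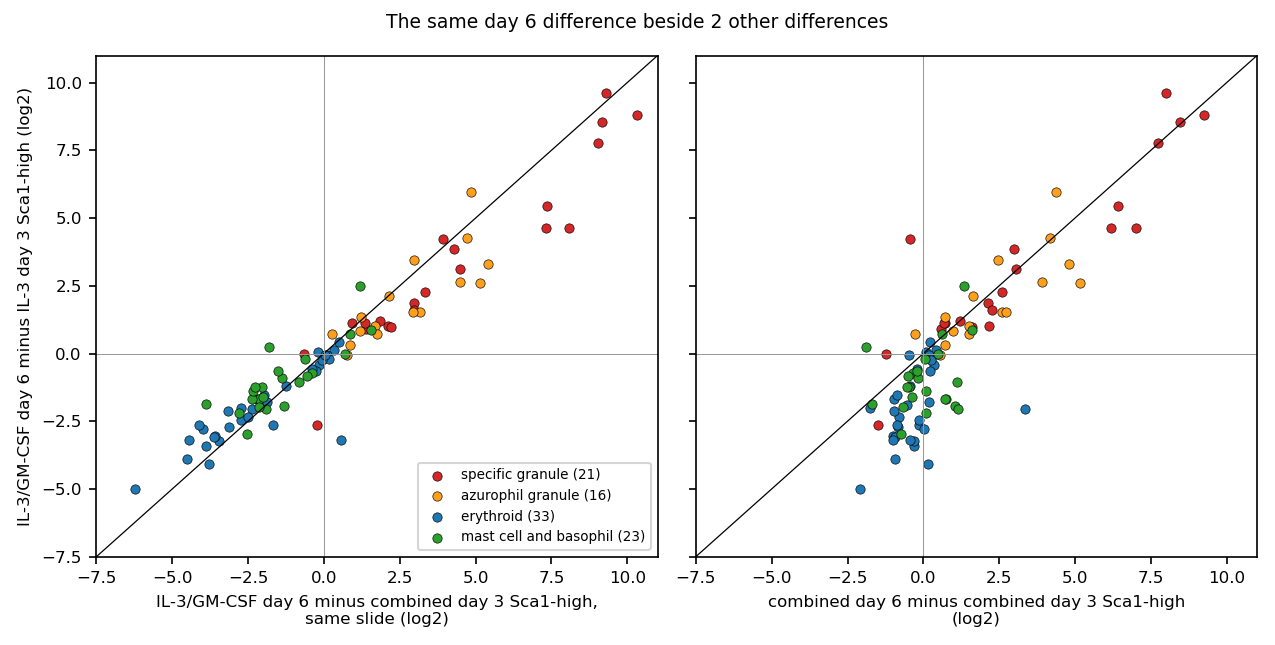
Difference between day 6 and day 3 Sca1-high in the IL-3/GM-CSF culture (y axis, log2) for 4 gene lists, against the difference from the combined day 3 Sca1-high array on the same slide (left) and against the contrast within the combined treatment (right). The diagonal marks equal differences. Most granule genes are above 0 on both axes of both panels, while erythroid and mast cell genes (medians -2.05 and -1.24 on the y axis) gather near 0 on the right, at medians of -0.32 and 0.05.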

How the data were processed

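RNA of EML-C1 cells was labelled with Cy3 and hybridised to 1-colour Agilent mouse arrays. Spot intensity values were extracted by the authors with Agilent Feature Extraction 11.0.1.1, per the submitters' processing notes and the file headers, and the deposited processed signal is already background-subtracted. The deposited value table held the same signals and was used as an alternative. Other deposited columns used, per the file headers, were flags for signal above background, saturation and outliers. From these, the log2 processed signal minus the 75th percentile of its array was computed after leaving out control and outlier spots and averaging repeated spots. The brightest probe stood for a gene. Of 55681 probes, 27229 carried a gene name, updated through RefSeq (GRCm38.p6), where 98.1% of RefSeq accessions matched. Normexp was run on the median signal, since the files hold no mean signal column. With 1 array a side there was no test. The named genes are the 15 largest increases and decreases by bounded difference without clone-type symbols, the 4 largest differences of each of 33 lists, the 2 neighbours of the 2-fold limit on each side, and 24 genes chosen for their role. Further list members named in the text were picked as examples after their values were seen. The lists and genes were chosen with earlier results of these data known. The calculation was tested on simulated data. Alternatives were other background corrections, scalings, filters, limits, probe rules and reference arrays. Python 3.11.15, pandas 2.3.3, R 4.3.3 and limma 3.58.1 were used. Some genes that the naming rule covers are not reported here.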

Additional observations from a re-analysis of the deposited data

Results flagged for a closer look

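Il13, a cytokine gene of mast cells, was flagged because its difference pointed the other way in the combined treatment. It is 1 of the 33 genes that counted as lower here and higher there, and 39 had the opposite pair of calls. The Il13 difference was -2.06 here (-4.41 to -6.47, where the day 6 value was not well above background and no fold was formed) and 1.13 there (-4.55 to -3.42). The day 3 level of -4.41 already lay under the day 6 limit of -4.04, so a decrease here was not measured. The difference between the treatments was not tested. Probes without a gene name carried signal that the gene comparison did not use: 946 of them were at least 2-fold higher at day 6 than in the day 3 Sca1-high fraction and also at least 2-fold above the untreated array. Of all 28452 unnamed probes on the array, 1190 were at least 2-fold higher and 1837 at least 2-fold lower. How many of the 28452 were well above background is not given here. These counts, and the 946, can therefore not be set beside the 6.86% higher and 9.61% lower of genes measured.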

How the results depend on the processing

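No paired analysis was possible because each group holds 1 array, and leaving out a replicate was not possible for the same reason. The 964 higher genes became 574 with normexp and quantile normalization, 2894 without a filter on background, 473 at a 4-fold limit and 1465 against the mean of both day 3 fractions. The 1351 lower genes became 466 with normexp and quantile normalization, 574 when both arrays had to be well above background, 345 at 4-fold, and 780 or 730 with the dim side set to the lowest level or the 1st percentile above background. A large share of the lower genes were thus not well above background at day 6, where the array gives only a bound. The other alternatives kept both counts within 1.5 times. The medians of 5 lists that lay 2-fold from 0 kept their sign under every alternative run, at 1.69 to 3.96 for specific granules, 1.40 to 3.71 for azurophil granules, 1.14 to 2.81 for gelatinase granules, -1.79 to -0.60 for mast cells and -3.85 to -0.86 for erythroid genes. Of the 33 lists, 14, all nearer to 0, changed sign under at least 1 alternative. The sign changes that follow are those of named genes counted as different, and those of genes under 2-fold, such as Cd34, are not listed. Against the mean of both day 3 fractions the sign turned for Ccl5 (1.04), Cd74 (0.13), Cebpa (0.96), Ctss (1.29), Irf8 (0.78), Itgad (0.74), Itgax (1.47), Ppbp (0.80), Slc2a6 (0.12) and Tgm2 (0.14), all of which were lower in Sca1-low than in Sca1-high cells. Against the combined day 3 array of the same slide, an alternative chosen after seeing the data, it turned for Olfr1 (0.51) and Olfr818 (0.85), and Ctss came to 0.0, rounded. With that array as the reference, the median of all genes then measured went from -0.10 to 0.11. The cause was not tested.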
